A study of Rattus norvegicus with 9 samples.

Results

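The protein kinase C isoforms are the kinases that rottlerin was long used to inhibit, and 8 of their genes were read in the rat liver arrays: Prkca, Prkcb, Prkcd, Prkce, Prkch, Prkcq, Prkci and Prkcz. They were chosen by gene symbol and make up 8 of the 14377 genes that the table names singly, through 13 of its 31042 non-control probe sets. A probe set is a group of short oligonucleotides that reads one transcript. Where several probe sets read an isoform, the one with the highest mean signal stood for it.

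The study asked what rottlerin, named in its labels as an activator of BK channels, does to livers made fibrotic with CCl4. One array was hybridised for each of 9 livers from male Sprague-Dawley rats, 3 from rats given vehicle, 3 from rats given CCl4 and 3 from rats given CCl4 and rottlerin (CCl4+Rot). CCl4, a liver toxin, was mixed in equal parts with olive oil. The mix was injected into the peritoneum at 0.2 mL per 100 g, 2 times a week for 8 weeks. Rottlerin was added at 2.5 mg/kg from 2 weeks after the first CCl4 injection. The rats' age is not given in the sources used here, and no group here had rottlerin without CCl4. Each array stands for 1 rat, so the spread within a group is a spread between animals, and 3 arrays a group limit the precision of every value.

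Protein kinase C isoforms phosphorylate serines and threonines and fall into 3 classes by what switches them on. The conventional isoforms (here alpha and beta) need calcium and diacylglycerol (DAG), the calcium-independent isoforms (delta, epsilon, eta and theta) need DAG alone, and the atypical isoforms (iota and zeta) need neither and act with Par6 in cell polarity complexes. Delta is the isoform that rottlerin was classically said to block, a claim later disputed on biochemical grounds. In the liver, alpha, delta and epsilon are known from hepatocytes, where epsilon is linked to insulin resistance in fatty liver, while beta is prominent in B cells and theta in T cells. The arrays measured RNA only, so they say nothing of kinase activity.

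The start of each gene was looked up in the RefSeq promoter windows of the GRCr8 rat assembly, which run from 250 bases before to 50 bases after the annotated start. Windows were found for 6 of the 8 isoforms, and Prkcb and Prkch are named only. Those of Prkcd, the classic target, and of Prkci, the isoform with the smallest differences between groups, are shown, the first because the comparison with rottlerin turns on it and the second for contrast. Capitals mark matches to the motifs searched on both strands, here the GC box GGGCGG, read on either strand, and, in Prkcd, the TATA box TATAAA at position -244, far from the usual place of such a box.
Prkcd, chr16:5805790-5806089, minus strand: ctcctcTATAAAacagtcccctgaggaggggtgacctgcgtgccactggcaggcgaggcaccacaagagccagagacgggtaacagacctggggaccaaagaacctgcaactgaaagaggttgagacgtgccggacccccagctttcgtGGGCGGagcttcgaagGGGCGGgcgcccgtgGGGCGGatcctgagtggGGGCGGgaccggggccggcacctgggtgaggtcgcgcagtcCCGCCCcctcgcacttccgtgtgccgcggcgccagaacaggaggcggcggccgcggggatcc
Prkci, chr2:114310735-114311034, minus strand: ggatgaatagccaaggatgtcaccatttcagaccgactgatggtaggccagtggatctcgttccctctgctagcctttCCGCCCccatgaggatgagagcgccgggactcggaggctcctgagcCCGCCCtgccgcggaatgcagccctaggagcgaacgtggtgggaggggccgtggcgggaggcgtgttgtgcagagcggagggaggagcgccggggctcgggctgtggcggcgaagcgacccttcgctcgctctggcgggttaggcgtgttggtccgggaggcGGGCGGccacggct

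A GC box was found in 6 of the 6 windows, compared with 33.1% of the 33469 promoter windows of the assembly. The 6 windows were 66.3% to 73.3% G and C, compared with a median of 51.7% over all windows. CCAAT was found only in the Prkcz window among the 6 (37.5% of all windows) and TATAAA only in that of Prkcd (14.2%). Neither the AP-1 motif TGACTCA (4.63% of all windows) nor the STAT motif TTCNNNGAA (8.87%) was found in any of the 6. No 2 motif matches of different kinds overlapped. These are matches of letters in GRCr8, a later assembly than the array design, and are descriptions only.

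Signals are given as the deposited log2 values, and each carries a detection call of present, marginal or absent. The levels of different probe sets cannot be set against each other, so only differences between groups are compared. The 31042 probe sets were fitted together with limma, and p was adjusted by Benjamini and Hochberg over all of them. A call needs an adjusted p below 0.05 and 1.5-fold between the groups. A difference is given as log2 of one group over the other, with its SE or 95% interval. CCl4 replicate 3 stood apart from the other arrays, with 12714 present calls against 15550 to 16849 and a median signal of 7.81 against 6.79 to 7.01. The deviation was largest among dim probe sets, whose median on this array lay 1.57 above the mean of the other 2 CCl4 arrays where the mean signal was below 5, and 0.30 below it where the mean signal was above 11. Many differences that rest on this array are therefore also given without it, and those given once include it. All 7 measured hepatocyte markers were present on all 9 arrays, and their summed linear signal was 130957 on CCl4 replicate 3 and 180374 to 203883 on the others.

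Of the 8 isoforms, 5 (Prkca, Prkcb, Prkcd, Prkce and Prkci) were called present on all 9 arrays. Prkch was present on 8 and marginal on CCl4 replicate 3. Prkcq, the theta isoform of T cells, was present on CCl4 replicate 3 alone, and Prkcz was present on none. The plot of the isoforms by array shows these calls with the signals.

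**Figure D1:**
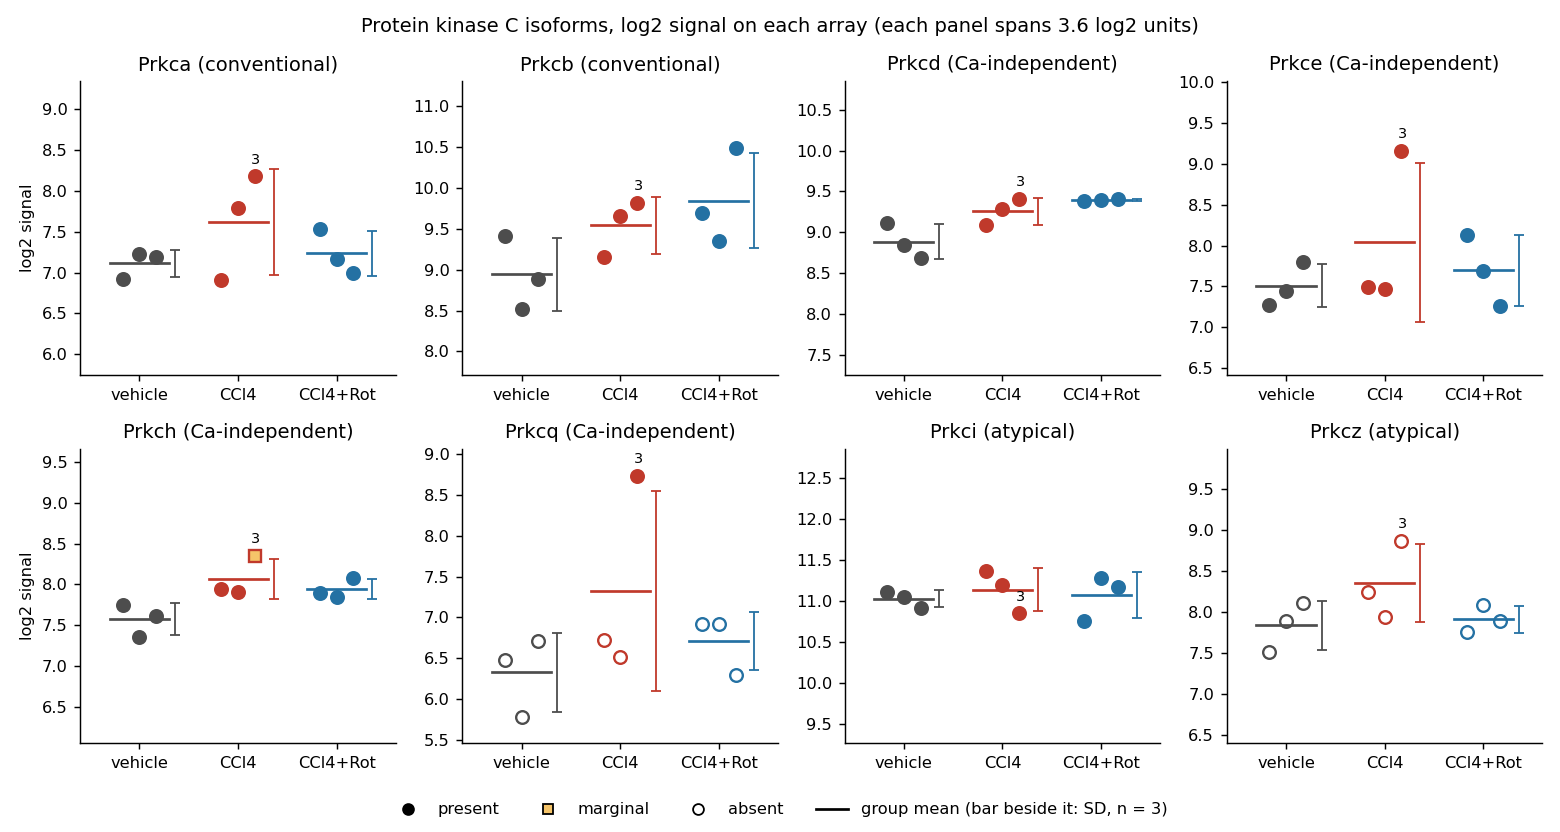
Log2 signal (y axis) of each isoform on each of the 9 arrays, by group (x axis), with filled symbols for present, squares for marginal and open circles for absent calls. Horizontal lines are group means, the bars beside them 1 SD (n = 3), and "3" marks CCl4 replicate 3, which is the highest array for 6 of the 8 isoforms.

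No isoform passed the test in any of the 3 comparisons. Limma called 0 of 8 with CCl4 against vehicle (0% of the 31042 probe sets), 0 of 8 with rottlerin against CCl4 (0.00322% of probe sets) and 0 of 8 with CCl4+Rot against vehicle (0.0258%). The adjusted p of the isoforms ran from 0.370 to 0.849, from 0.765 to 0.946 and from 0.466 to 0.989 in the same order. With 3 arrays against 3, the smallest p that a two-sided exact permutation test can give is 0.1, so no single isoform could pass such a test. All 8 group means were higher with CCl4 than with vehicle, where 61.2% of all genes had a higher mean, and the median difference was 0.51, compared with 0.13 over all genes. Without CCl4 replicate 3, 7 of 8 were higher (53.1% of all genes), with a median of 0.27 (0.03 over all genes). Among the 6 isoforms detected in both groups, all means were higher with CCl4, with a median of 0.50, and 5 were higher without CCl4 replicate 3.

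The delta isoform Prkcd, which takes part in apoptosis and in the oxidative burst of phagocytes, had signals of 9.11, 8.85 and 8.69 in vehicle-treated rats, 9.08, 9.28 and 9.41 in CCl4-treated rats and 9.39, 9.39 and 9.41 in CCl4+Rot rats. The order of the group means was vehicle (8.88 ± 0.21, SD, n = 3), CCl4 (9.26 ± 0.16) and CCl4+Rot (9.39 ± 0.011), and the 3 CCl4+Rot arrays all lay above the 3 vehicle arrays. Neighbouring groups in that order overlapped. With CCl4 the log2 difference from vehicle was 0.38 (SE 0.17, adjusted p = 0.434), and 0.30 without CCl4 replicate 3.
With rottlerin, Prkcd differed from CCl4 by 0.14, with a 95% interval from -0.27 to 0.54 and an adjusted p of 0.861. That interval holds lower as well as higher levels and lies within 1.5-fold (a log2 of 0.58) in both directions. Without CCl4 replicate 3 the difference was 0.21, and the 3 CCl4+Rot arrays lay above the remaining CCl4 arrays. CCl4+Rot differed from vehicle by 0.51 (1.42-fold, 95% interval 0.11 to 0.92), at an unadjusted p of 0.0201 and an adjusted p of 0.466 in limma.

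Among the other calcium-independent isoforms, Prkch (eta), an isoform of epithelia and T cells, had signals of 7.75, 7.36 and 7.62 with vehicle, 7.95, 7.91 and 8.35 with CCl4 and 7.90, 7.84 and 8.08 with CCl4+Rot. Every array of either CCl4 group lay above every vehicle array, and the CCl4 groups overlapped each other. The difference of CCl4 from vehicle was 0.49 (95% interval 0.04 to 0.95, unadjusted p = 0.0362, adjusted p = 0.370 in limma), and 0.35 without CCl4 replicate 3, whose call was marginal. CCl4+Rot differed from CCl4 by -0.13 (adjusted p = 0.880) and from vehicle by 0.36 (adjusted p = 0.718). The other probe set of Prkch, present on 7 arrays, had signals of 6.68, 5.95 and 6.08 with vehicle, 6.64, 6.43 and 7.11 with CCl4 and 6.99, 6.41 and 6.99 with CCl4+Rot. On this probe set the vehicle rats overlapped both other groups.

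Prkce (epsilon) had signals of 7.28, 7.45 and 7.79 with vehicle, 7.5, 7.46 and 9.16 with CCl4 and 8.13, 7.69 and 7.27 with CCl4+Rot. All 3 groups overlapped, and the highest signal was that of CCl4 replicate 3. The difference of CCl4 from vehicle was 0.53 (SE 0.48, adjusted p = 0.667) and turned to -0.028 without that array. With rottlerin the difference from CCl4 was -0.34 (adjusted p = 0.872) and turned to 0.22 without it, and against vehicle it was 0.19 (adjusted p = 0.972).

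Prkcq (theta) had signals of 6.48, 5.79 and 6.72 with vehicle, 6.72, 6.51 and 8.74 with CCl4 and 6.92, 6.92 and 6.30 with CCl4+Rot. The value of 8.74 on CCl4 replicate 3 was the only one called present. Where a signal of the other group lay below the dimmest present call of its array, that call was to replace it, but this changed no Prkcq value. The CCl4 mean was 2.00-fold that of vehicle and 1.53-fold that of CCl4+Rot (adjusted p = 0.518 and 0.817 in limma). It rests on 1 present call of 3. The 95% intervals, -0.37 to 2.37 for CCl4 against vehicle and -1.98 to 0.76 for CCl4+Rot against CCl4, include no change. Without CCl4 replicate 3, CCl4 lay 0.29 above vehicle on the log2 scale and CCl4+Rot lay 0.096 above CCl4, the latter a turned direction. All these values carry absent calls. On the same array the summed linear signal of the 9 measured T and NK cell markers was 2022, compared with 643 to 1214 on the other 8. None of the 9 was present on all arrays, and Cd3d, Cd2, Cd8a and Lck were present on none. On CCl4 replicate 3 only Cd3e was called present, so that sum is mostly signal called absent. Lck was the brightest of the 9 there, at 8.91. Zap70 was absent there and present on the other 8 arrays. The B cell marker sum was also highest there, at 1068 compared with 420 to 522. Probe sets with a mean signal of 6 to 7, as Prkcq has, lay a median of 1.06 above the other CCl4 arrays there. The part of T and NK cells, or of this array-wide shift, in the Prkcq signal was not tested.

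The conventional isoform Prkcb, prominent in B cells and myeloid cells, had signals of 9.42, 8.52 and 8.88 with vehicle, 9.15, 9.66 and 9.82 with CCl4 and 9.69, 9.35 and 10.49 with CCl4+Rot. Its group means followed the order vehicle (8.94 ± 0.45), CCl4 (9.54 ± 0.35) and CCl4+Rot (9.84 ± 0.58), the widest spread of means among the isoforms detected in a whole group. Every pair of groups overlapped, and the highest vehicle array lay above the lowest array of both other groups.
CCl4 differed from vehicle by 0.60 (SE 0.37, adjusted p = 0.530), or 0.46 without CCl4 replicate 3. CCl4+Rot differed from CCl4 by 0.30 (95% interval -0.55 to 1.15, adjusted p = 0.852), by 0.44 without CCl4 replicate 3 and by -0.021 without CCl4+Rot replicate 6, the array with 10.49. CCl4+Rot differed from vehicle by 0.90 (1.87-fold, 95% interval 0.05 to 1.76), at an unadjusted p of 0.0407 and an adjusted p of 0.567 in limma. Without CCl4+Rot replicate 6 this difference was 0.58, short of 1.5-fold.

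The other probe sets of Prkcb gave partly different values. The second, present on 5 arrays, had signals of 6.92, 5.93 and 6.62 with vehicle, 6.00, 7.27 and 8.37 with CCl4 and 7.26, 7.08 and 7.60 with CCl4+Rot, so that the CCl4+Rot arrays lay above all vehicle arrays. The third, present on 1 array, is listed on the opposite strand, and its signals ran from 1.02 to 6.85. With rottlerin the second probe set was higher than with CCl4, by 0.10, like the brightest. Only the third was lower. With the mean of the 3 probe sets, rottlerin differed from CCl4 by -0.28 for this gene, the reverse of the value on the brightest probe set.

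In RNA from whole liver, a change in the number of cells of a type and a change in RNA per cell cannot be told apart, and this touches Prkcb first. The summed linear signal of the 7 measured macrophage markers, all present on all 9 arrays, ran from 14618 to 18347 with vehicle, from 19163 to 26184 with CCl4 and from 24549 to 29217 with CCl4+Rot. The markers did not move alike. With CCl4, 5 had a higher mean than with vehicle, among them the bright Lyz2 (12.13 to 13.36). The other 2, Clec4f (12.69 to 12.24) and Cd163 (8.83 to 8.81), had a lower mean. With CCl4+Rot all 7 means lay above vehicle. The sum of the 4 measured B cell markers ran from 479 to 495, from 420 to 1068 and from 483 to 522 in the same order of groups, with Blk present on no array. The 1068 was that of CCl4 replicate 3, and the other CCl4 arrays had 420 and 431, below the vehicle arrays. For the 8 stellate cell and myofibroblast markers, of which 7 were present on all arrays, the sums were 7935 to 13216, 18004 to 32972 and 28064 to 35120. The part of these cells in the Prkcb signal was not tested.

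Over the 9 arrays, the genes whose signal followed that of Prkcb most closely, among 7057 candidates present on all arrays, were Tlr1 (Pearson r = 0.97), Tns3 (0.96), Slc25a23 (0.96), Dag1 (0.95) and Gtf2f1 (0.95). They encode a Toll-like receptor, a tensin of cell adhesions, a mitochondrial carrier, dystroglycan and a subunit of transcription factor IIF. Tlr1 was lowest in vehicle replicate 4 (5.77) and highest in CCl4+Rot replicate 6 (8.75), the same arrays at which Prkcb had 8.52 and 10.49. In all, 47 candidates had r above 0.9. All of these points come from the same 9 arrays with the same group differences and array deviations, so the likeness is a description.

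Prkca, the conventional isoform found in most cell types, had signals of 6.92, 7.23 and 7.19 with vehicle, 6.91, 7.78 and 8.18 with CCl4 and 7.54, 7.17 and 7.0 with CCl4+Rot. Its group means were 7.11 ± 0.17, 7.62 ± 0.65 and 7.23 ± 0.27, and the CCl4 rats covered the range of both other groups. CCl4 differed from vehicle by 0.51 (SE 0.33, adjusted p = 0.554) and by 0.23 without CCl4 replicate 3. CCl4+Rot differed from CCl4 by -0.39 (adjusted p = 0.802) and by -0.11 without it.

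The atypical isoform Prkci (iota) had signals of 11.11, 11.05 and 10.91 with vehicle, 11.37, 11.19 and 10.85 with CCl4 and 10.75, 11.28 and 11.17 with CCl4+Rot. The 3 groups overlapped, with means of 11.03 ± 0.10, 11.14 ± 0.26 and 11.07 ± 0.28. The differences were 0.11 for CCl4 against vehicle (95% interval -0.39 to 0.61), -0.068 for rottlerin against CCl4 (-0.56 to 0.43) and 0.042 for CCl4+Rot against vehicle (-0.45 to 0.54). The second and the third of these intervals stay within 1.5-fold in both directions.
Unlike the other isoforms, Prkci was lower on CCl4 replicate 3 than on the other CCl4 arrays, and without it both remaining CCl4 arrays lay above all vehicle arrays (difference 0.25, adjusted p = 0.674). Its second probe set, present on 4 arrays, had signals of 7.55, 7.44 and 7.67 with vehicle and of 7.08, 7.38 and 7.35 with CCl4+Rot, which did not overlap and differed in the other direction. The third, listed on the strand opposite to the other Prkci probe sets, was present on 3 arrays and ran from 4.34 to 8.13.

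Prkcz (zeta) was absent on every array, with signals of 7.51, 7.89 and 8.11 with vehicle, 8.25, 7.93 and 8.87 with CCl4 and 7.75, 8.08 and 7.89 with CCl4+Rot. The groups overlapped, and no fold is given for a gene not detected in either group. The Prkcz differences still enter the counts and medians of the 8 isoforms, and they rest on absent calls alone.

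**Figure D2:**
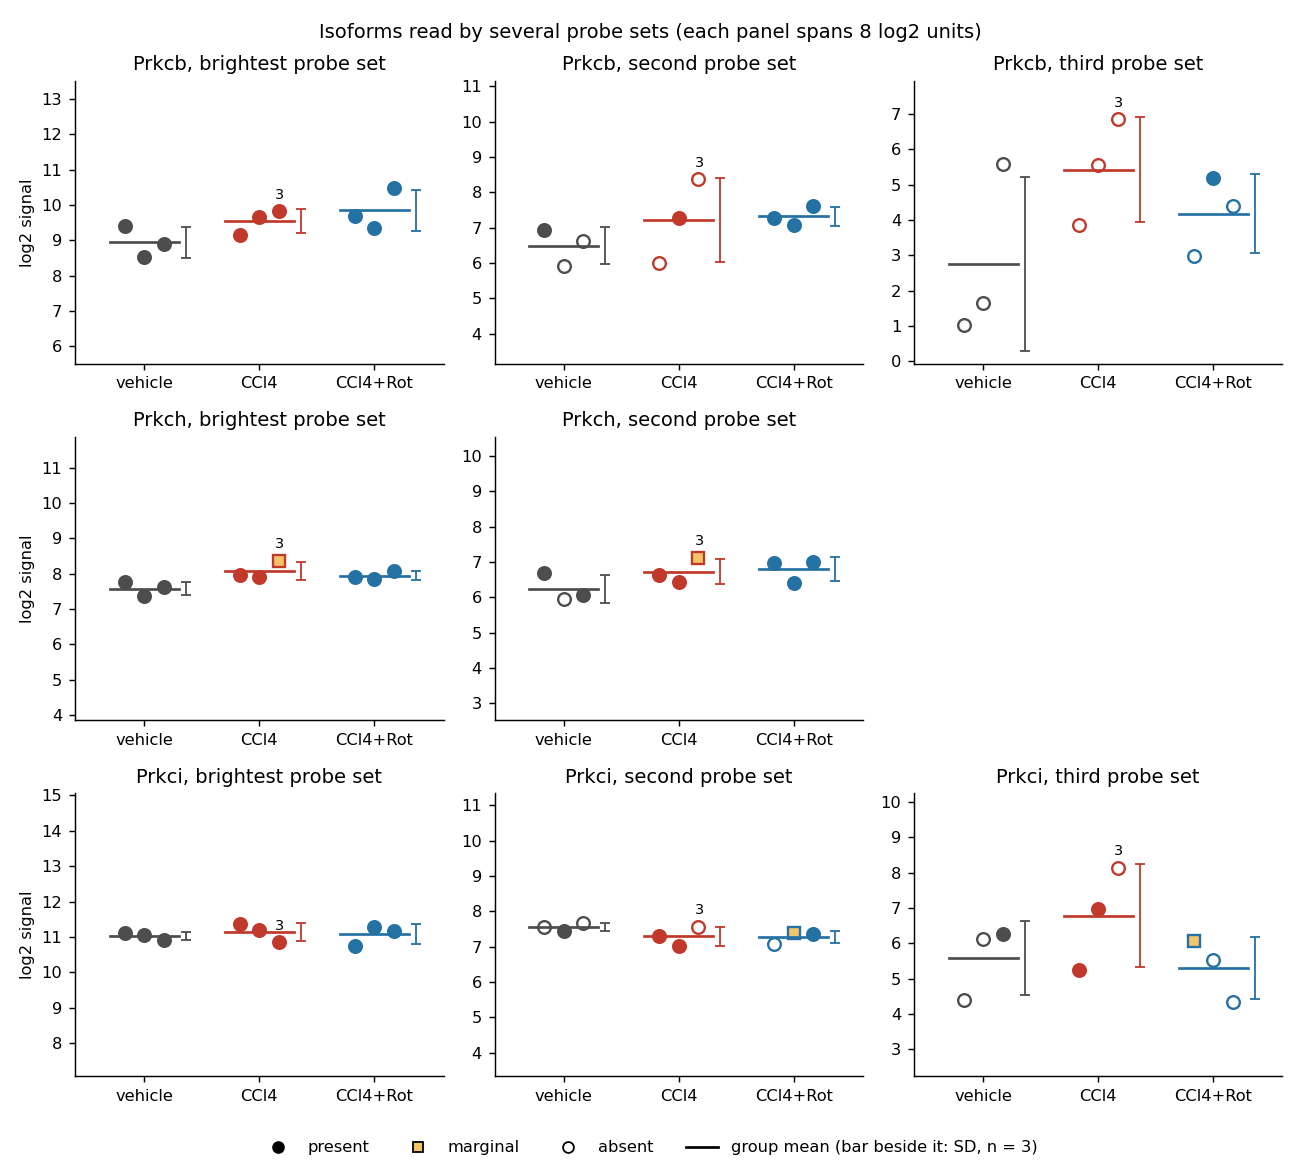
Log2 signal (y axis) by group (x axis) for every probe set of Prkcb, Prkch and Prkci, with call symbols, means and SD bars (n = 3) as in the plot of all isoforms. The less bright probe sets have more absent or marginal calls, as in the third Prkcb probe set, whose vehicle arrays run from 1.02 to 5.58.

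Counts of isoforms past nominal limits were read beside those of all genes. With CCl4 against vehicle, 1 of 8 (12.5%) had an unadjusted limma p below 0.05, where 13.5% of all genes did, and 1 of 8 (Prkch) had groups that did not overlap, where 21% of all genes did. With rottlerin against CCl4 neither occurred in any isoform, where 5.5% and 11.2% of all genes did so. With CCl4+Rot against vehicle, 2 of 8 had such a p (Prkcb and Prkcd, 9.79% of all genes) and 2 of 8 did not overlap (Prkcd and Prkch, 24.7% of all genes).
A difference of at least 1.5-fold above vehicle was reached by 2 isoforms with CCl4 (Prkcb and Prkcq, 24.2% of all genes) and by 1 with CCl4+Rot (Prkcb, 14.9%). With rottlerin against CCl4, 1 isoform (Prkcq) was 1.5-fold lower, where 17.8% of all genes were. None was 1.5-fold lower with CCl4 or CCl4+Rot than with vehicle (5.56% and 8.25% of all genes) or 1.5-fold higher with rottlerin than with CCl4 (5.55%).
Without CCl4 replicate 3, the groups did not overlap for 2 of 8 isoforms with CCl4 against vehicle (Prkch and Prkci, 32.9% of all genes) and for 1 of 8 with rottlerin against CCl4 (Prkcd, 22.7%). No isoform was then 1.5-fold higher with CCl4 than with vehicle (15.8% of all genes) or 1.5-fold lower with rottlerin than with CCl4 (9.45%).

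**Figure D3:**
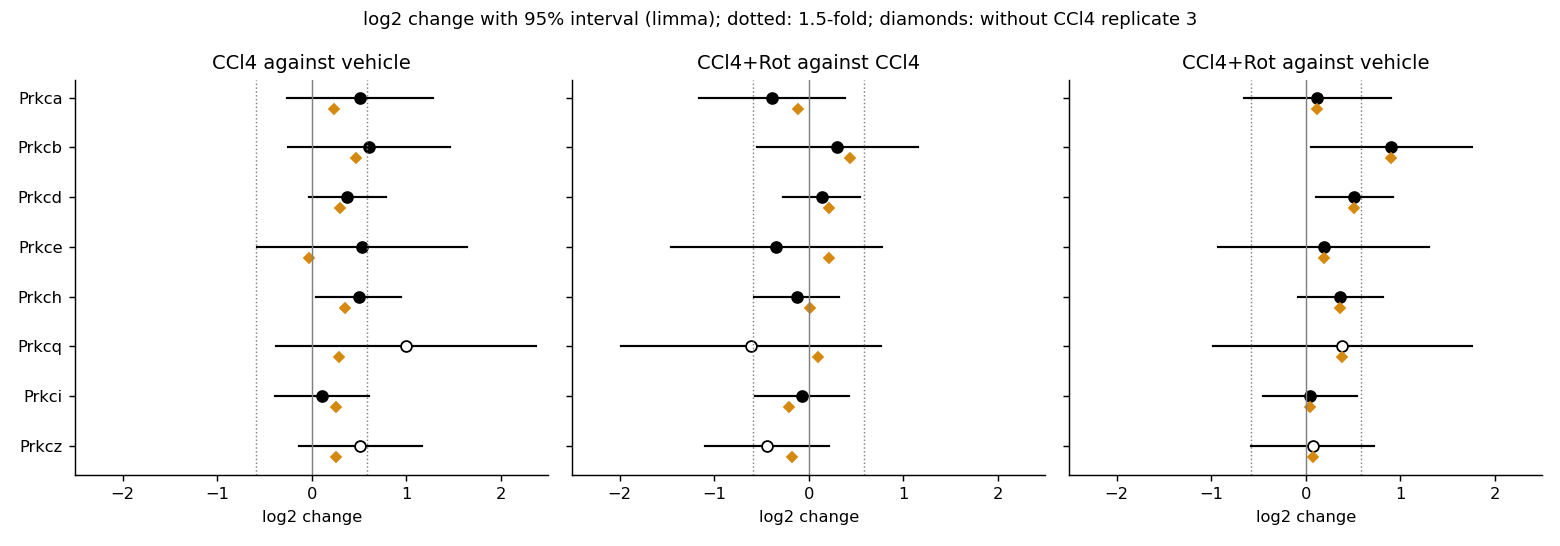
Log2 difference (x axis) of each isoform (y axis) in the 3 comparisons, with 95% intervals from limma. Open circles mark isoforms not detected in 1 or both groups, dotted lines 1.5-fold and orange diamonds the value without CCl4 replicate 3. Of the 8 intervals, 7 include 0 with CCl4 against vehicle, 8 with rottlerin against CCl4 and 6 with CCl4+Rot against vehicle.

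With rottlerin against CCl4, the means of 2 isoforms were higher and of 6 lower, with a median difference of -0.24 (-0.05 over all genes, 43.8% of which had a higher mean). Without CCl4 replicate 3, 5 were higher and the median was 0.054 (0.015 over all genes, 52.1% of which were higher). Among the 6 isoforms detected in both groups, 2 were higher and 4 lower with rottlerin, with a median of -0.098. Of these 6, 4 were higher without CCl4 replicate 3. CCl4+Rot against vehicle does not use that array's mean, and there all 8 means were higher, with a median of 0.28 (0.03 over all genes, 53.8% higher). The comparisons share their vehicle, CCl4 or CCl4+Rot arrays and are not independent of one another.

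**Figure D4:**
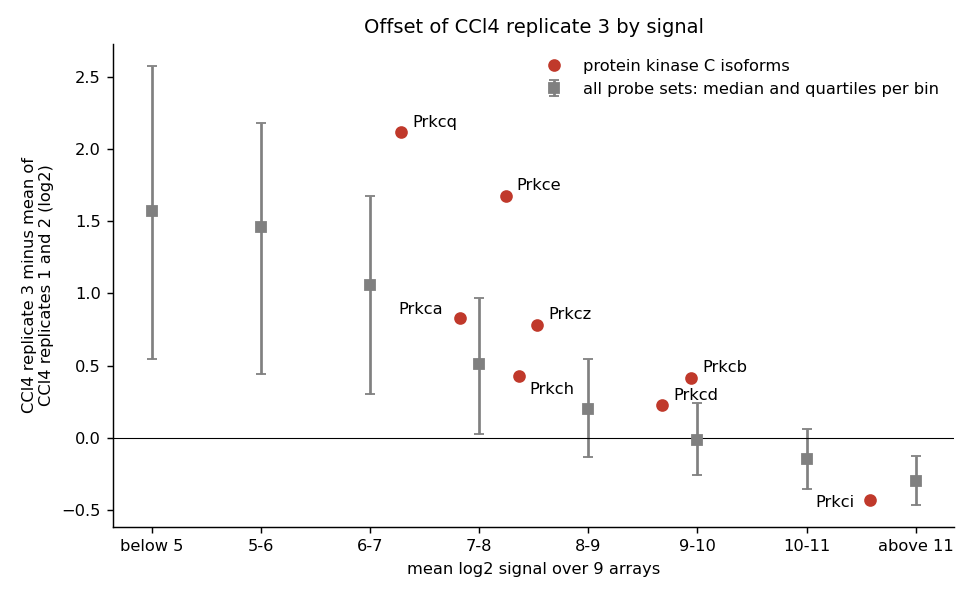
Signal on CCl4 replicate 3 minus the mean of the other CCl4 arrays (y axis, log2) against the mean signal over 9 arrays (x axis, log2), for all probe sets as medians with quartiles per bin and for the isoforms as points. The outermost bins are drawn 1 unit beyond their neighbours. Prkcq (2.12), Prkce (1.68), Prkcz (0.78) and Prkcb (0.42) lie above the quartiles of their bins, and Prkca, Prkch, Prkcd and Prkci (-0.43) lie within theirs.

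The genes around protein kinase C were read from 7 lists with 69 genes, of which 64 were measured. None was called in any comparison. An unadjusted limma p below 0.05 was found for 4 with CCl4 against vehicle (6.25%), 0 with rottlerin against CCl4 and 7 with CCl4+Rot against vehicle (10.9%), all of them higher, where 13.5%, 5.5% and 9.79% of all genes had such a p. In the same order of comparisons, groups did not overlap for 11 (17.2%), 8 (12.5%) and 14 (21.9%) of the 64. The shares over all genes were 21%, 11.2% and 24.7%, so the genes named below for groups that did not overlap are descriptions. The medians of the 64 differences were 0.16, -0.01 and 0.04, and those of the first and second comparison were 0.01 and 0.04 without CCl4 replicate 3.

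**Figure D5:**
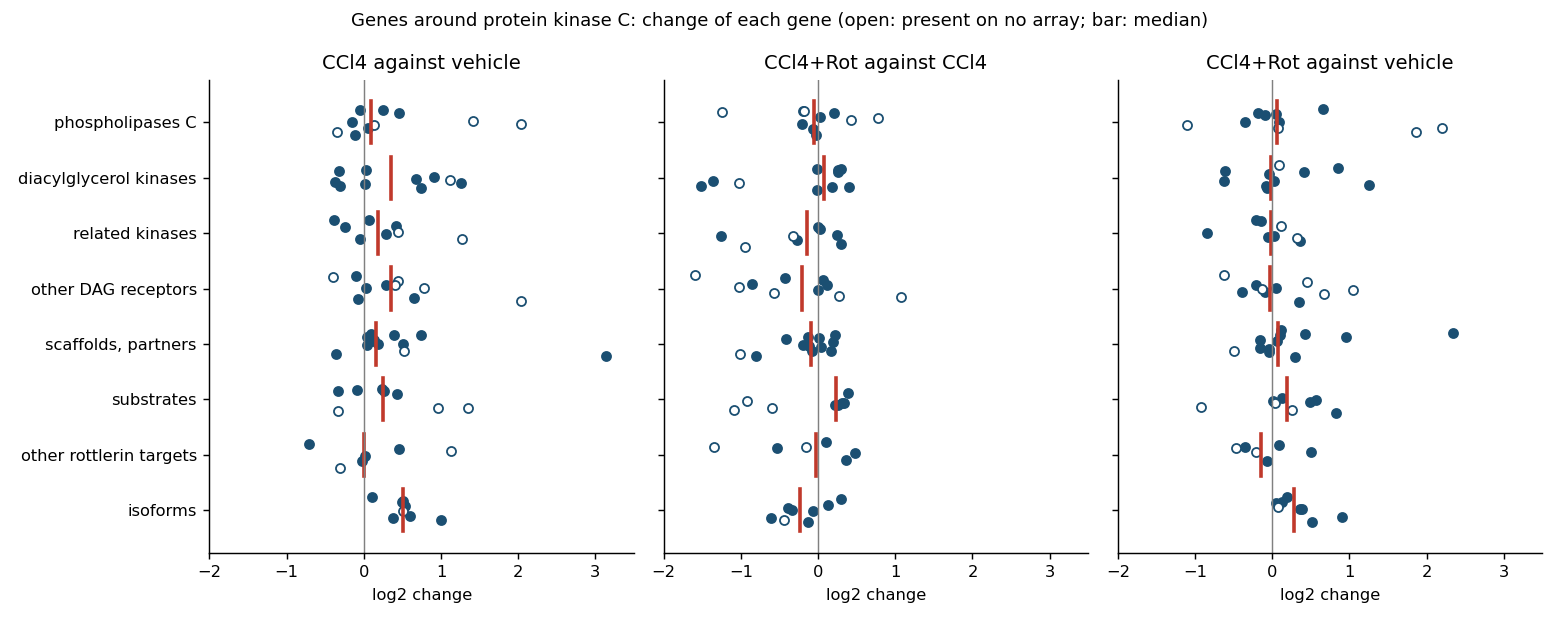
Log2 difference (x axis) of each measured gene in the 7 lists and of the 8 isoforms (y axis), by comparison. Filled points are genes present on at least 1 array, open points genes present on none, and red bars are medians, which lie at 0.51, -0.24 and 0.28 for the isoforms.

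Phospholipases C release the DAG and calcium that switch on the conventional isoforms, and 4 of the 10 measured were present on all arrays. Plcd1 had signals of 7.07, 6.74 and 7.18 with vehicle, 6.86, 7.48 and 8.0 with CCl4 and 7.82, 7.54 and 7.60 with CCl4+Rot, and the CCl4+Rot arrays lay above all vehicle arrays (difference 0.65, adjusted p = 0.632). Plcb1 was lower on every CCl4+Rot array than on any vehicle array (-0.35, adjusted p = 0.712). For Plcb2 the CCl4 difference was 0.25 and the rottlerin difference -0.21 (adjusted p = 0.736 and 0.873), or 0.088 and -0.04 without CCl4 replicate 3. Plcg2 and Plcd4, each with 1 unadjusted p below 0.05, were present on no array, and no fold is given for them.

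Diacylglycerol kinases remove DAG by turning it into phosphatidic acid. Dgkh had signals of 6.41, 6.29 and 6.48 with vehicle, 6.73, 6.93 and 7.54 with CCl4 and 7.14, 7.0 and 7.59 with CCl4+Rot. All vehicle arrays lay below all other arrays, and the differences from vehicle were 0.67 with CCl4 (adjusted p = 0.363) and 0.85 with CCl4+Rot (adjusted p = 0.395). The 7.54 of CCl4 replicate 3 was called absent. Dgkd had signals of 9.01, 9.12 and 9.25, then 8.54, 8.81 and 8.93, then 9.11, 9.03 and 9.01 in the same order of groups, with every CCl4 array below every array of the other groups. Its differences were -0.37 with CCl4 (adjusted p = 0.422) and 0.29 with rottlerin (adjusted p = 0.765). Dgkz was higher on every CCl4+Rot array than on any CCl4 array (0.40, adjusted p = 0.765). With only the other CCl4 arrays, the CCl4 differences of Dgkh and Dgkd were 0.44 and -0.45, and the rottlerin differences of Dgkd and Dgkz 0.38 and 0.45.

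Of 8 related kinases, Prkd3, a protein kinase D that protein kinase C activates, differed by -0.39 with CCl4 (adjusted p = 0.498) and by -0.20 without CCl4 replicate 3. Pkn2, whose kinase domain resembles that of protein kinase C, was lower on all CCl4 arrays than on any vehicle array (-0.24, adjusted p = 0.583, and -0.11 without that array). A further 10 genes came from the chimaerin, Rasgrp and Unc13 families, which include proteins that bind DAG through a C1 domain. Of these 10, 5 were present on no array and none had groups that did not overlap. Rasgrp3, Rasgrp2 (exchange factors for Ras-type GTPases) and Chn2 (a Rac GTPase-activating protein) differed by 0.29, -0.08 and -0.10 with CCl4 and by 0.06, 0.12 and 0.0037 with rottlerin. Leaving out CCl4 replicate 3, these were 0.27, -0.18 and -0.10, and 0.084, 0.23 and 0.0025.

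The smallest adjusted p among detected genes of the lists belonged to Ppp1r14a, which encodes CPI-17, an inhibitor of myosin phosphatase that protein kinase C switches on and that is known from smooth muscle. Its signals were 8.37, 7.95 and 8.21 with vehicle, 9.01, 9.08 and 8.64 with CCl4 and 8.93, 9.27 and 9.18 with CCl4+Rot. The vehicle arrays lay below all others. The differences from vehicle were 0.74 with CCl4 (adjusted p = 0.252) and 0.95 with CCl4+Rot (adjusted p = 0.220). The second was called when the spread was allowed to follow the signal with robust estimation (adjusted p = 0.0361). That fit called many more probe sets in this comparison than the main fit, as counted in the closing section. With rottlerin against CCl4 the difference was 0.22 (adjusted p = 0.814). With CCl4 replicate 3 left out, the CCl4 and rottlerin differences were 0.87 and 0.078. The stellate cell and myofibroblast marker sums given above, in which Col3a1 was the brightest, moved the same way between vehicle and the CCl4 groups. All 8 marker means were higher with CCl4 than with vehicle, and all but Tagln without CCl4 replicate 3. The amounts were unlike. With CCl4 and CCl4+Rot, Col3a1 differed from vehicle by 1.17 and 1.68, Acta2 by 0.78 and 0.50 and Tagln by 0.25 and 0.13. The Acta2 call on CCl4 replicate 3 was marginal. The part of these cells in Ppp1r14a was not tested.
Of the partners, Pard6b, the Par6 protein that binds the atypical isoforms, was higher on all CCl4 arrays than on any vehicle array (0.40, adjusted p = 0.50). Sdpr, a caveolar protein that binds protein kinase C, was lower on all CCl4+Rot arrays than on any CCl4 array (-0.20, adjusted p = 0.791). Akap5, an anchoring protein with 1 present call, had unadjusted p below 0.05 against vehicle in both CCl4 groups, and is named with no fold.

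Among the substrates, the adducins and Marcks link the membrane skeleton to actin. Add1 had signals of 10.54, 10.68 and 10.41 with vehicle, 10.10, 10.30 and 10.24 with CCl4 and 10.52, 10.50 and 10.64 with CCl4+Rot. All CCl4 arrays lay below all arrays of the other groups, with differences of -0.33 with CCl4 (adjusted p = 0.437) and 0.34 with rottlerin (adjusted p = 0.752), or -0.34 and 0.35 without CCl4 replicate 3. Add3 was higher on every CCl4+Rot array than on any other (0.32 against CCl4 and 0.57 against vehicle, adjusted p = 0.765 and 0.471). Marcks, and Plek, the main substrate in platelets, differed from vehicle by 0.82 and 0.49 in CCl4+Rot rats (adjusted p = 0.567 and 0.596).

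Other proteins have been named as targets of rottlerin. Kcnma1, the pore subunit of the BK channel, was present on no array, with signals from 4.62 to 6.13. Kcnmb4, an accessory subunit, was present on 6 arrays and differed by 0.45 with CCl4, or by 0.02 without CCl4 replicate 3. Eef2k, a kinase of elongation factor 2, had signals of 7.76, 8.53 and 8.25 with vehicle, 7.43, 8.39 and 6.60 with CCl4 and 7.84, 7.92 and 7.74 with CCl4+Rot. The 6.60 of CCl4 replicate 3 was called absent. The Eef2k difference of -0.71 with CCl4 (adjusted p = 0.532) was -0.27 without that array. Mapkapk2, a kinase downstream of p38, was higher on all CCl4+Rot arrays than on any CCl4 array (0.49, adjusted p = 0.765).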

How the data were processed

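RNA of 9 rat livers was measured on Affymetrix rat genome arrays. The values the authors deposited are log2 signals of 31099 probe sets, each with a detection call, and the submitters' processing notes name MAS5 and affy. On the linear scale all arrays share a 2% trimmed mean of 500. Array quantiles differ, so no quantile step is in the values and low signals stay noisy. The genome build of the table's positions is not given in the sources used here, so only GRCr8 positions are printed.

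Groups came from the labels. The 57 control probe sets were left out and 31042 were fitted with limma 3.58.1 (R 4.3.3, statmod 1.5.0) as 3 group means, with Benjamini-Hochberg adjustment over all of them. The code was tested on simulated data. A gene was read by its brightest probe set among those naming it alone. For a gene present in only 1 group, signals of the other group below the dimmest present call of their array were raised to it. A gene present in neither group was given no fold. The members and lists were chosen with earlier results of these data known. From each list the genes called were named, with those of smallest p in CCl4 against vehicle and in CCl4+Rot against CCl4, 2 for each and only if present on all arrays of a group, and Kcnma1. Among the related kinases, 1 gene so chosen is not reported here. Plcg2, Plcd4, Akap5 and Plek were named after their values were seen. The genes most like the isoform with the widest range of group means were taken from those present on all 9 arrays.

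Alternatives were quantile normalization, median centring, an offset of 64, filters on dim or absent probe sets, fitting only the groups compared, trend and robust estimation, t-tests, other fold thresholds, a replicate block, each array left out and other probe sets. The robust fit without CCl4 replicate 3, and counts without it, were added after seeing the data.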

Additional observations from a re-analysis of the deposited data

How the results depend on the processing

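No isoform was called under any alternative, the t-test at an unadjusted p and the robust fits included. The filter on probe sets present on at least 3 arrays removed Prkcq and Prkcz, so these were not tested under it. The lowest adjusted p in any of them was 0.118 (Prkcd, CCl4+Rot against vehicle, robust fit without CCl4 replicate 3). Counts of called probe sets moved, taken over all 31042 or, with a filter, over those it kept. For CCl4 against vehicle the 0 calls became 18 with the offset, 4 without the dimmest 30%, 78 with probe sets present on at least 3 arrays, 348 in the robust fit, 313 in that fit without CCl4 replicate 3 and 1774 in the t-test at an unadjusted p. For rottlerin against CCl4 the single call became 0 with quantile normalization, the offset, either filter, only the 2 groups compared or the adjusted t-test, 11 in the robust fit without CCl4 replicate 3 and 851 in the unadjusted t-test, and ran from 0 to 2 with an array left out. For CCl4+Rot against vehicle the 8 calls became 3 with quantile normalization, 2 with median centring, 31 with the offset, 22 without the dimmest 30%, 63 with the present filter, 1 with only the 2 groups, 241 in the robust fit, 365 in that fit without CCl4 replicate 3, 0 in the adjusted and 2126 in the unadjusted t-test, and ran from 0 to 24 with an array left out. The cause was not tested.

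The sign of some differences turned. With median centring Prkci became -0.25 with CCl4, 0.18 with rottlerin and -0.068 for CCl4+Rot against vehicle, Prkch 0.12 with rottlerin and Prkcz -0.039 against vehicle (-0.030 with quantile normalization). Averaged over all its probe sets, Prkcb became -0.28 with rottlerin and Prkci, averaged likewise, -0.17 for CCl4+Rot against vehicle. Without CCl4 replicate 3, in either fit, Prkce became -0.028 with CCl4 and 0.22 with rottlerin, and with rottlerin Prkch became 0.013 and Prkcq 0.096. Leaving out arrays one by one, the differences whose sign turned ran from -0.028 to 0.82 (Prkce) and from -0.0048 to 0.25 (Prkci) with CCl4. With rottlerin they ran from -0.021 to 0.55 (Prkcb), -0.63 to 0.22 (Prkce), -0.21 to 0.013 (Prkch), -1.02 to 0.096 (Prkcq) and -0.21 to 0.091 (Prkci). For CCl4+Rot against vehicle they ran from -0.028 to 0.24 (Prkca), -0.030 to 0.40 (Prkce), -0.065 to 0.20 (Prkci) and -0.089 to 0.21 (Prkcz).

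The replicate numbers only name the animals. Groups shared few of them, same-numbered arrays had correlations of -0.090, -0.0047 and -0.013 between their deviations, and the fit with the number as a random replicate block (consensus correlation -0.033) called 0, 1 and 8 probe sets and 0 isoforms. Intervals of the isoforms were 0.81 to 2.74 log2 units wide, so small differences could not be resolved with 3 arrays a group.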
